A study of Mus musculus with 6 samples.

Results

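Voltage-gated calcium channel genes that gave rise to circular RNAs (circRNAs) were described in mouse hippocampus, using every circRNA whose host list holds the Ensembl identifier of Cacna1d, Cacna2d1 or Cacna2d3. The rule found 18 of the 10652 circRNAs in the table, 4 of Cacna1d, 9 of Cacna2d1 and 5 of Cacna2d3. The libraries came from adult male C57BL/6J mice aged 8 to 10 weeks at purchase. The CUS group (3 libraries) went through chronic unpredictable stress for 4 weeks, a random schedule of mild stressors such as restraint, cold swimming, cage tilting and food or water deprivation, and the Control group (3 libraries) had no stress listed. The labels name no genetic change in either group. They call the libraries independent samples without saying whether each came from a single mouse. The p-values below thus weigh a group difference against the spread between these libraries, which may differ from the spread between mice. The 3 hosts were chosen with their CUS and Control levels known, so those levels are given as a description, and no p-value of theirs is printed or read.

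A voltage-gated calcium channel is built around a pore-forming alpha1 subunit that opens when the membrane depolarises and lets calcium into the cell. An intracellular beta subunit and an extracellular, membrane-anchored alpha2delta subunit help bring the pore to the surface and adjust how it opens. In neurons these channels trigger transmitter release at presynaptic terminals, and the L-type class on cell bodies and dendrites links firing to gene expression. A circRNA is a ring made when a downstream splice donor joins an upstream acceptor. It carries exons of its host gene, but its level need not follow that of the linear mRNA, which was not analysed here.

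A level here is 10 to the deposited log10 value, and 0 means that the circRNA had no value in that library. The files name no unit for it and no depth, so the number of reads behind a level is unknown, and a listing at 0 may still be a circRNA missed at this depth. Levels in a library are whole multiples of a step, and the inverse of the step, which may follow sequencing depth, stood at 81.9%, 89.8% and 88.8% of its highest value in CUS replicates 1 to 3, against 100%, 95.8% and 90.8% in Control replicates 1 to 3. Every CUS library was thus lower on this measure, and its part in the listings at 0 was not tested. CUS libraries held 3991 to 4273 circRNAs above 0 and Control libraries 4329 to 4606, while summed levels lay between 1990260 and 2034490 in CUS and between 2028330 and 2050720 in Control. The labels' protocols describe purification of poly(A) RNA ahead of the libraries, whereas rings lack such a tail. The length of each circRNA is not in the table, so levels were not ranked between genes. Sequences of the circRNAs are not in the files used here, and none is shown.

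Each of the 18 circRNAs was classed as exonic and listed a single host, in a table where 89.4% of circRNAs were exonic. Most were seen rarely, with 11 of the 18 (61.1%) above 0 in only 1 library, against 36.9% of the whole table. Of those 11, 7 were in a CUS library and 4 in a Control library, at levels between 199 and 902. No circRNA of the 3 hosts was above 0 in all 6 libraries, against 804 of the 10652. CUS replicates 1 to 3 held 5, 1 and 7 of the 18, and Control replicates 1 to 3 held 5, 7 and 8. CUS replicate 2 thus had the fewest, a single Cacna2d3 circRNA.

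**Figure D1:**
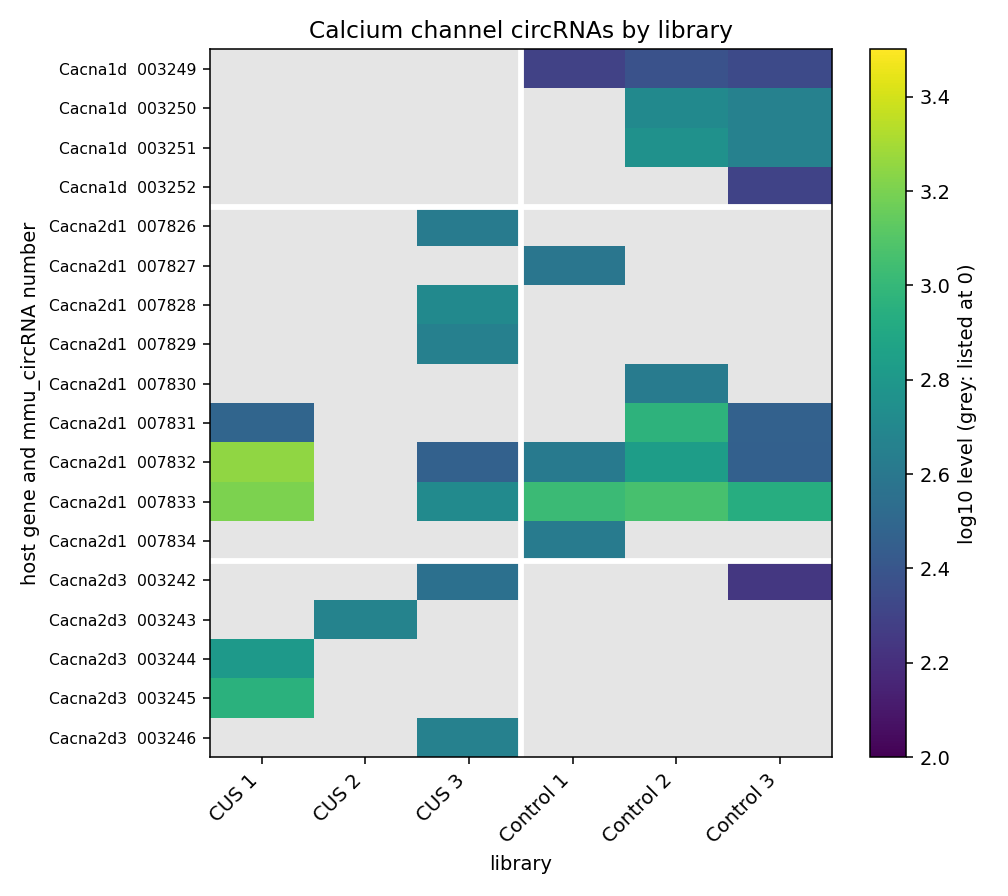
Log10 level of the 18 circRNAs (rows, by host gene and mmu_circRNA number) in 3 CUS and 3 Control libraries (columns), with grey for a circRNA listed at 0. Cacna1d is filled only in Control columns, CUS 2 is grey throughout Cacna2d1, and the Cacna2d3 circRNAs fall on different rows in each CUS column.

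Cacna1d encodes the pore of a neuronal L-type channel that opens at more negative voltages than its relative from Cacna1c. The gene lies on the minus strand of chromosome 14, from 30039939 to 30491455 on GRCm38. Its 4 circRNAs were listed at 0 in all 3 CUS libraries and summed to 198, 1326 and 1333 in Control replicates 1 to 3. All Control libraries were above all CUS libraries, with Control replicate 1 well under the other two. Among the 2227 hosts tested, 5.75% had every CUS library below every Control library, and 1.39% (31 hosts) were above 0 in all Control libraries and at 0 in all CUS libraries. No fold is given against a group at 0.

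Within Cacna1d, mmu_circRNA003249 was the most regular, at 0 in every CUS library and at 198, 239.6 and 218 in Control replicates 1 to 3. Of the circRNAs tested, 5.08% had every CUS library below every Control library, and 2.41% were above 0 in all Control libraries and at 0 in all CUS libraries. It was the only Cacna1d circRNA above 0 in Control replicate 1 and accounted for the whole host sum there. mmu_circRNA003251 was at 0 in every CUS library and at 0, 572 and 458 in Control. mmu_circRNA003250 was also at 0 in every CUS library and at 0, 514 and 458 in Control. These circRNAs had the same level in Control replicate 3 and differed by 23 steps in Control replicate 2. Whether mmu_circRNA003250 and mmu_circRNA003251 share reads was not tested. Together they made up most of the host sum in Control replicates 2 and 3. The fourth, mmu_circRNA003252, was above 0 only in Control replicate 3, at 199.

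Cacna2d3 encodes an alpha2delta subunit whose loss in mice alters heat pain and hearing. It lies on the same strand of chromosome 14, from 28904943 to 29721864 on GRCm38, 318 kb from Cacna1d. GENCODE places 3 protein-coding genes in the gap, Actr8, Il17rb and Selenok, and none of the 10 annotated genes there had a circRNA in the table. The Cacna2d3 sum was 1545, 471 and 813 in CUS replicates 1 to 3, against 0, 0 and 176 in Control replicates 1 to 3. Every CUS library was above every Control library, as for 5.66% of the hosts tested. The fitted log2 difference was 3.53, but it depends on what is added to a 0, and was 1.98 with 5 times the pseudocount and 5.10 with 0.2 times.

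The Cacna2d3 level came from different circRNAs in each CUS library. CUS replicate 1 held mmu_circRNA003245 at 902 and mmu_circRNA003244 at 643, both at 0 in the other libraries. CUS replicate 2 held only mmu_circRNA003243, at 471, which was at 0 elsewhere. CUS replicate 3 held mmu_circRNA003246 at 457, at 0 elsewhere, and mmu_circRNA003242 at 356. No Cacna2d3 circRNA was thus above 0 in more than 1 CUS library, and none passed the filter for single circRNAs. mmu_circRNA003242 was also the source of the Control signal, at 0, 0 and 176 in Control replicates 1 to 3. Of 111 hosts with 5 circRNAs and a sum above 0 in all CUS libraries, 6 (5.41%, Cacna2d3 included) likewise shared no circRNA between CUS libraries.

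Cacna2d1 encodes the alpha2delta subunit that binds the drugs gabapentin and pregabalin and serves as a neuronal receptor for thrombospondins. It lies on the plus strand of chromosome 5, from 15934691 to 16374511 on GRCm38. Its 9 circRNAs summed to 3702, 0 and 2199 in CUS replicates 1 to 3, against 2272, 3187 and 1439 in Control replicates 1 to 3. The groups overlapped, with the highest and the lowest library both in CUS. The fitted log2 difference of -1.62 turned to 0.38 without CUS replicate 2.

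The absence from CUS replicate 2 covered all 9 circRNAs. Hosts above 0 in the other 5 libraries were at 0 in CUS replicate 2 in 79 of 999 cases (7.91%). The shares for the other libraries ran from 4.37% in Control replicate 2 to 8.37% in CUS replicate 1. These shares cover hosts of every level. Of 135 hosts at 1438.84 or more in the 5 libraries besides CUS replicate 2, 1 was at 0 there, Cacna2d1 itself. That cutoff is the lowest Cacna2d1 level above 0, so this is a description.

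The main Cacna2d1 products were mmu_circRNA007833 and mmu_circRNA007832, the only circRNAs of the 18 above 0 in 5 libraries. mmu_circRNA007833 was at 1601, 0 and 519 in CUS replicates 1 to 3, against 1052, 1152 and 859 in Control replicates 1 to 3. Its Control values were close together, while CUS replicate 1 was above and CUS replicate 3 below all of them. mmu_circRNA007832 was at 1792, 0 and 294 in CUS libraries, against 413, 683 and 287 in Control libraries. It was higher than mmu_circRNA007833 in CUS replicate 1 and lower in the other 4 libraries with a value. Their joint share of the host sum was 91.6% in CUS replicate 1 and 37.0% in CUS replicate 3, against 64.5%, 57.6% and 79.7% in Control replicates 1 to 3. mmu_circRNA007831 was at 309.5, 0 and 0 in CUS libraries, against 0, 930.3 and 293 in Control.

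The other 6 Cacna2d1 circRNAs were each above 0 in 1 library, at levels between 386 and 516. CUS replicate 3 held 3 of them, mmu_circRNA007826, mmu_circRNA007828 and mmu_circRNA007829, at 419, 516 and 451. Control replicate 1 held mmu_circRNA007827 at 386 and mmu_circRNA007834 at 420.05, and Control replicate 2 held mmu_circRNA007830 at 421. With 5 Cacna2d1 circRNAs, CUS replicate 3 had the widest set and the lowest share from the main pair.

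**Figure D2:**
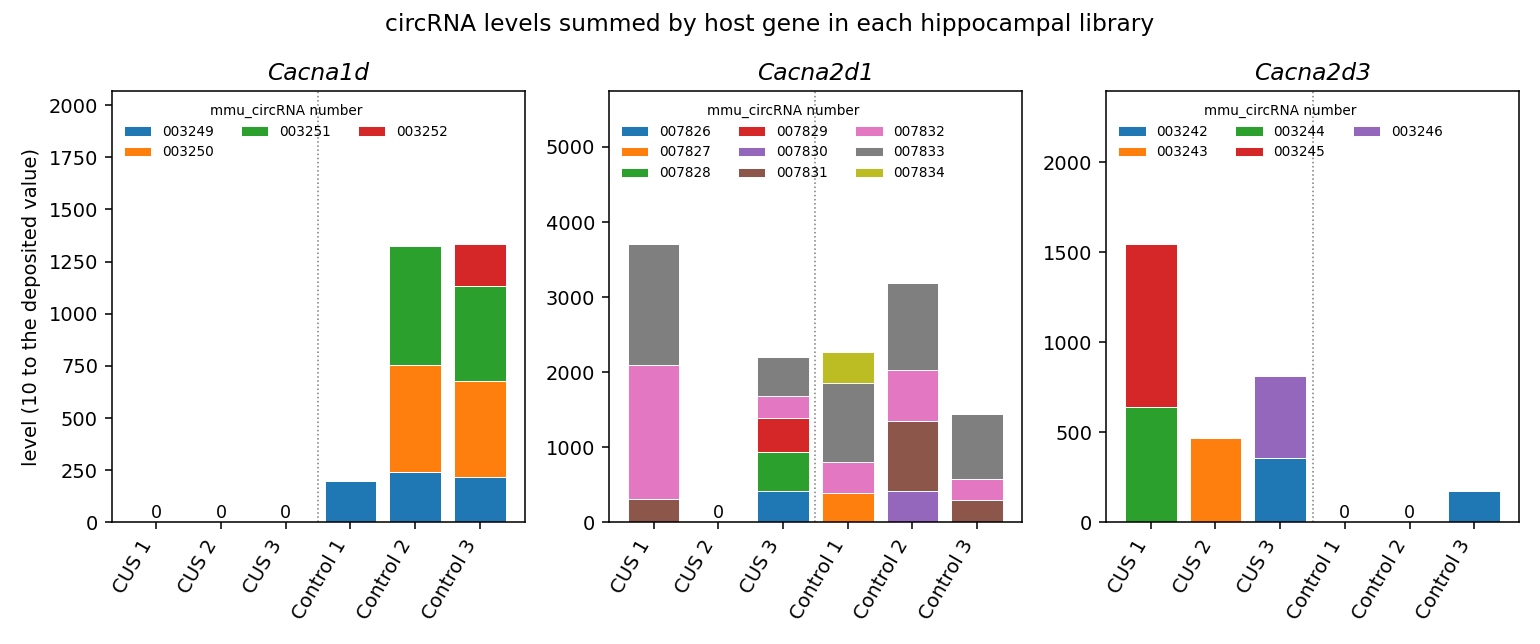
Summed circRNA level of each host gene (10 to the deposited value, axes start at 0) in 3 CUS and 3 Control libraries, with each segment a circRNA and 0 marking a library without any. Cacna1d is at 0 in all CUS libraries, Cacna2d1 at 0 in CUS 2 only, and Cacna2d3 reaches 1545 in CUS 1 against 176 in Control 3.

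Single circRNAs and host sums were compared between CUS and Control with limma across the whole table, on features above 0 in at least 3 of the 6 libraries. Only 4 of the 18 circRNAs passed that filter, mmu_circRNA003249 of Cacna1d and mmu_circRNA007831, mmu_circRNA007832 and mmu_circRNA007833 of Cacna2d1, and 14 did not. At an adjusted p under 0.05 the test called 0 of all 3896 circRNAs tested (0%). At an unadjusted p under 0.05 it called 234 of the 3896 (6.01%). The 3 host sums passed the filter, and of all 2227 hosts limma called 0 (0%) at the adjusted threshold and 127 (5.70%) at an unadjusted p under 0.05. Since the 3 hosts were chosen on this contrast, nothing is read from these counts about them.

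The rest of the channel family was then examined in a list of 23 other alpha1, beta, alpha2delta and gamma subunit genes. Of these, 10 had a circRNA, 35 circRNAs in all, and 48.6% of the 35 were above 0 in 1 library only. The alpha2delta genes Cacna2d2 and Cacna2d4 and the beta genes Cacnb1, Cacnb2 and Cacnb3 had none in the table. Of the 5 tested hosts, all alpha1 genes, fitted values were above Control in 2 and below it in 3, with a median log2 difference of -0.17 beside -0.06 over all hosts tested. With limma 0 of the 5 passed, adjusted (0% of all hosts) or at an unadjusted p under 0.05 (5.70% of all hosts). Their summed level with the 5 untested hosts was between 5645 and 6645 in CUS and between 5979 and 7867 in Control.

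Cacna1c, which encodes the most abundant L-type pore in brain, was at 1389, 796 and 1101 in CUS libraries, against 121, 817 and 497 in Control libraries. The groups overlapped by CUS replicate 2 and Control replicate 2, and the log2 difference was 1.38 (SE 0.85, limma adjusted p = 0.918). Most of it lay in mmu_circRNA009011, at 1123, 226 and 631 in CUS libraries, against 0, 282 and 104 in Control libraries. The fitted difference of Cacna1c was thus above 0, while the other L-type host in the table, Cacna1d, was at 0 throughout CUS. The difference between these 2 hosts was not tested.

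Cacna1a, the pore of the P/Q-type channel that drives transmitter release, had the most circRNAs of the family, 14. It was at 2577, 2843 and 2647 in CUS libraries, against 3389.6, 3807 and 3788 in Control, with every CUS library lower, a pattern seen in 5.75% of the hosts tested. The log2 difference was -0.44 (SE 0.39, limma adjusted p = 0.918). Its leading circRNA, mmu_circRNA010133, was above 0 in all 6 libraries. It was at 1831, 1759 and 2316 in CUS libraries, against 2641, 1699 and 583 in Control libraries, and these ranges overlapped. The fitted log2 difference of mmu_circRNA010133 was 0.48 (limma adjusted p = 0.872), opposite in sign to that of the host sum. The pattern of every CUS library lower was thus seen in the host sum and not in this circRNA.

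Cacna1e, the pore of the R-type channel, was at 2249, 1665 and 1862 in CUS libraries, against 1709, 2501 and 848 in Control libraries, with overlapping ranges. Cacna1b, the pore of the N-type channel, was at 430.4, 0 and 141 in CUS libraries, against 142, 628 and 0 in Control libraries. Cacna1i, a low-voltage T-type pore, was at 0, 0 and 122 in CUS libraries, against 0, 113 and 657 in Control libraries. The T-type gene Cacna1h, the beta gene Cacnb4 and the gamma genes Cacng3, Cacng7 and Cacng8 had 1 circRNA each and were above 0 in too few libraries to be tested.

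**Figure D3:**
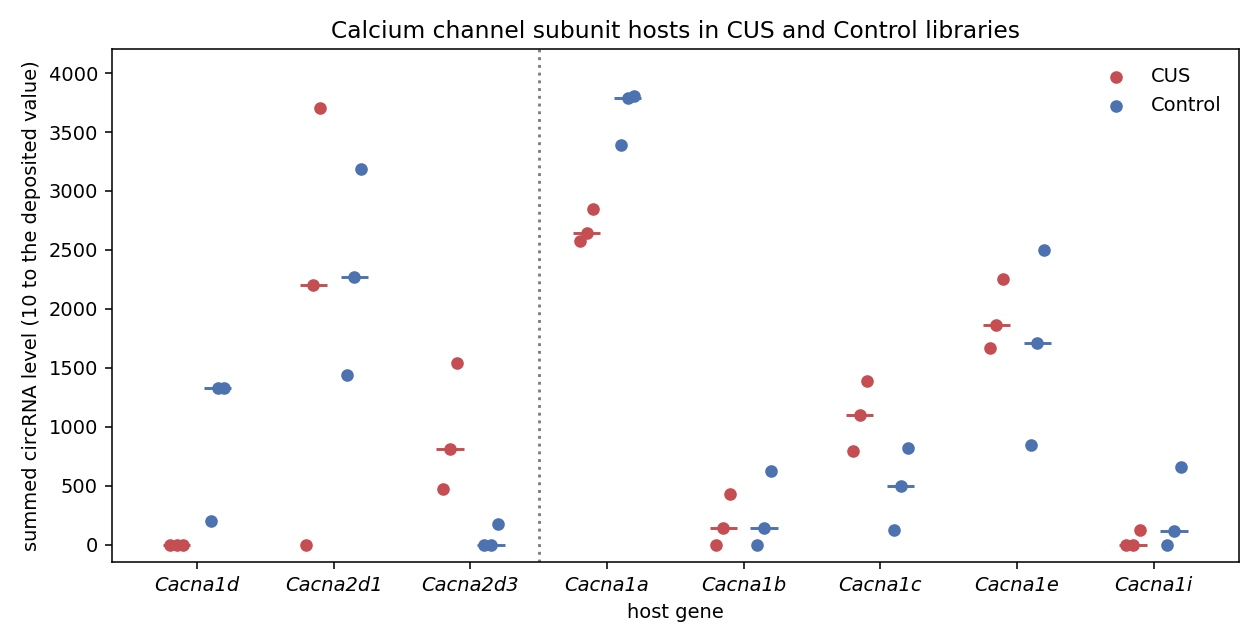
Summed circRNA level of calcium channel subunit hosts in CUS (left of each pair) and Control libraries, with a point per library and a line at the median. The 3 hosts left of the dotted line are those chosen for their levels. Among the others the 3 CUS points of Cacna1a lie below its Control points, while those of Cacna1b, Cacna1c, Cacna1e and Cacna1i overlap.

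The number of circRNAs per host was set beside the length of the host gene. Cacna1d, Cacna2d1 and Cacna2d3 span 452, 440 and 817 kb, against a median of 74.1 kb over 3772 hosts, and GENCODE gives them up to 49, 40 and 38 exons in a transcript. Cacna2d1 had 9 circRNAs, a number that 4.24% of hosts reached, and 5 for Cacna2d3 and 4 for Cacna1d were reached by 14.3% and 20.9% of hosts. The 422 hosts longer than 300 kb had a median of 4 circRNAs, with quartiles of 2 and 7. Cacna2d1 was thus above the upper quartile of long hosts, and Cacna1d and Cacna2d3 were between the quartiles. Per 100 kb of gene, Cacna2d1 had 2.05 circRNAs, Cacna1d 0.886 and Cacna2d3 0.612, against a median of 2.67 over all hosts. Most of those hosts were far shorter, and each had a circRNA by definition, which raises the number per 100 kb in short genes. That median therefore does not show where these genes stand among hosts of like length, for which no such median was computed.

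**Figure D4:**
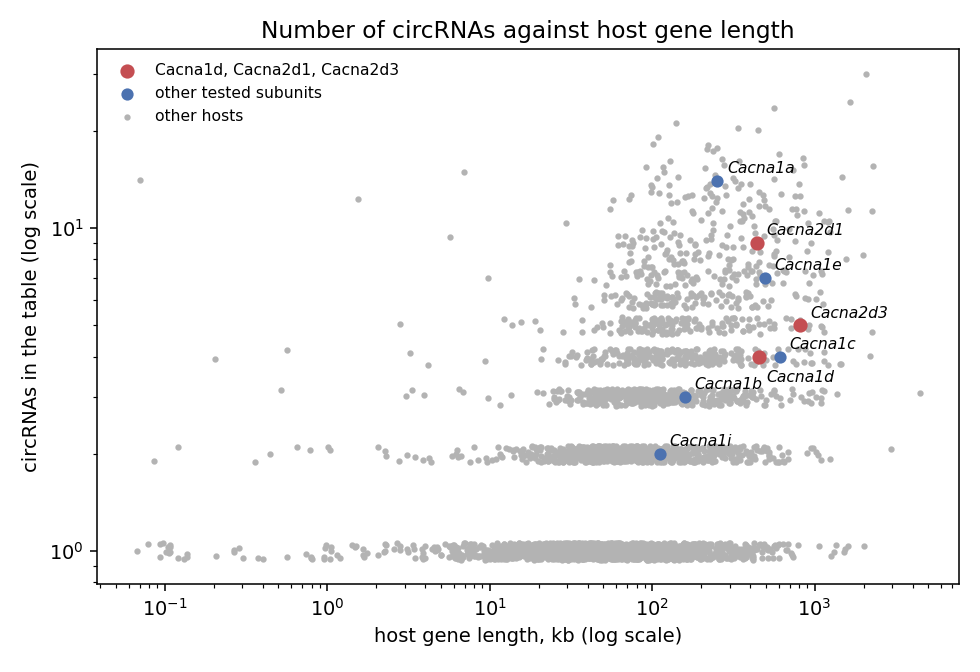
Number of circRNAs in the table against host gene length in kb (both axes logarithmic, grey points shifted slightly up or down at random). Cacna2d1 has 9 circRNAs at 440 kb, while Cacna2d3 has 5 at 817 kb and Cacna1d 4 at 452 kb.

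Proteins that bind these channels or place them at release sites were taken as a list of 32 genes, of which 16 had a circRNA and 14 were tested. Fitted values were higher in CUS for 4 and lower for 10, with a median log2 difference of -0.03 beside -0.06 over all hosts, of which 52.2% had a fitted value below 0. With limma 0 of 14 passed at the adjusted threshold, and 1 was higher and 0 lower at an unadjusted p under 0.05, beside 2.56% and 3.14% of all hosts. That host was Kcnma1, a calcium-activated potassium channel gene, at 752, 2647 and 764 in CUS libraries, against 246, 47.9 and 369.7 in Control. It was not called at that level without CUS replicate 2 or without Control replicate 2. Rimbp2, whose product ties calcium channels to the release site, was at 271, 594 and 454 in CUS libraries, against 2066, 472 and 1508 in Control libraries. Rims1 was at 3104, 2329 and 1628 in CUS libraries, against 4032, 2917 and 1019 in Control libraries, and Rims2 ranges overlapped as well. The thrombospondin genes Thbs1 to Thbs4, which encode ligands of the Cacna2d1 product, had no circRNA in the table.

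Genes that carry the calcium signal onward, such as calmodulin kinases, calcineurin, NFAT and CREB factors, formed a list of 33 genes, of which 22 had a circRNA and 17 were tested. Fitted values were higher in CUS for 7 and lower for 10, with a median log2 difference of -0.11, beside -0.06 and 52.2% below 0 over all hosts. With limma 0 of 17 passed, adjusted (0% of all hosts) or at an unadjusted p under 0.05 (5.70% of all hosts). The smallest p was that of Rasgrf2, a calcium-responsive Ras exchange factor gene, at 463, 2063 and 1601 in CUS libraries, against 176, 855 and 229 in Control libraries (log2 difference 1.67, SE 0.87, limma adjusted p = 0.918). Nfatc3, a calcineurin-dependent transcription factor gene, was at 2052, 1724 and 1245 in CUS libraries, against 565, 1185 and 817 in Control libraries, with every CUS library higher, as for 5.66% of the hosts tested. Ppp3ca, the calcineurin catalytic subunit gene of most circRNAs in the list (9), was at 3502, 2816 and 2772 in CUS libraries, against 3612, 2249 and 2641 in Control libraries, with overlapping ranges.

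The hosts whose levels lay nearest to each of the 3 across the 6 libraries were found by the mean absolute difference of log2(level + pseudocount). This distance takes in the overall level, which the unknown circRNA lengths may affect, as well as the pattern over libraries. For Cacna1d these were Scrn1, Cntn6 and Cdon, at 0.33, 0.41 and 0.42, each at 0 in all CUS libraries. Scrn1 was at 94.2, 822 and 902 in Control, low in replicate 1 like Cacna1d. For Cacna2d3 they were Sh3d19, Dop1a and Pde11a, at 0.35, 0.55 and 0.62, each at 0 in Control replicates 1 and 2. For Cacna2d1 the nearest were Abca8b, Lrrn3 and Psd3, all further away at 1.00, 1.03 and 1.07. Of these, Lrrn3 was also at 0 in CUS replicate 2, where Abca8b and Psd3 were at 804 and 847. These neighbours were picked from 2227 hosts over only 6 libraries and are a description.

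Marker hosts were measured to check the tissue and its cell makeup, and in bulk tissue fewer cells of a type and less RNA per cell cannot be told apart. With limma 0 marker hosts passed at the adjusted threshold, and the calls below are at an unadjusted p under 0.05, which 5.70% of all hosts had. Like the other gene lists, the marker lists were chosen with earlier results of these data known. The marker calls are thus a description, and nothing is read from their number beside that share. Dentate granule markers had a circRNA in 5 of 7 cases, with Calb1 and Dsp without. They summed to between 4439 and 7523 in CUS and between 3144 and 5501 in Control. Among the 4 tested, fitted values were higher in CUS for 2 and lower for 2, and only Rfx3 (higher) was called. CA pyramidal markers, 5 of 7 with a circRNA and Fibcd1 and Mpped1 without, summed to between 3149 and 6076 in CUS and between 5239 and 9046 in Control. Among its 5 tested hosts Cpne4 was called higher and Tenm3 and Galntl6 lower. The dentate marker Prox1 was above 0 only in CUS replicate 3, at 538, and in Control replicate 2, at 95.8, and was not tested. Both hippocampal lists thus had hosts with a circRNA, and their summed ranges overlapped between the groups. The sums do not by themselves show that a cell type was present.

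Pan-neuronal markers had a circRNA in 5 of 6 cases, with Snap25 without. They summed to between 6097 and 9688 in CUS and between 3285 and 7964 in Control. Among the 4 tested, fitted values were higher in CUS for 2 and lower for 2, and only Grin2b (higher) was called. Interneuron markers, 3 of 7 with a circRNA and Gad1, Gad2, Nxph1 and Sox6 without, summed to between 1702 and 4749.75 in CUS and between 1246 and 2862 in Control, and Adarb2 (higher) was called among 2 tested. Astrocyte markers had a circRNA in 4 of 8 cases, with Aqp4, Gfap, Rorb and Slc1a3 without. They summed to between 1710 and 2642 in CUS and between 1085 and 1525 in Control, which do not overlap. Among single hosts tested, 5.66% had every CUS library above every Control library. Of the 4 astrocyte hosts tested 0 were called, with fitted values higher in CUS for 3 and lower for 1. The lower host, Gpc5, was at 348, 296 and 179 in CUS libraries, against 377, 1056 and 801 in Control libraries. The 6 oligodendrocyte hosts with a circRNA, among them Edil3, Slc44a1 and Prr5l, summed to between 2039 and 3726 in CUS and between 1374 and 2107 in Control, and 0 of 3 tested were called. Vascular and choroid markers, 2 of 6 with a circRNA, summed to at most 233 in CUS and 454 in Control. Among 8 markers of neighbouring thalamus and striatum, 1 had a circRNA, with a sum of at most 277 in CUS and 0 in Control, and none of 5 microglial markers had any. The part of these levels in the Cacna1d, Cacna2d1 and Cacna2d3 values was not tested.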

How the data were processed

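The authors deposited 1 table of circRNA values on a log10 scale, with Ensembl host identifiers and a class per circRNA but no coordinates. The submitters' processing notes name mm9, StringTie, DESeq and edgeR with no role stated; which program called the circRNAs is not given here. Levels are 10 to the deposited log10 value, and 0 stays 0. In each library 100% of levels under 300 steps lay within 0.05 of a whole multiple of a library-specific step, and the lowest was 17 steps. Reads per value are unknown, so no counting interval is given, and poly(A) selection can distort circRNA recovery. Symbols and gene positions came from GENCODE vM21 (GRCm38), which matched 4467 of 4483 host identifiers. Host sums used the listed host of a single-host circRNA, of any gene type, and the only protein-coding host of a multi-host one. This left out 203 of 786 multi-host circRNAs and 658 intergenic ones. All 18 circRNAs described here list a single host.

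The comparison of CUS with Control used limma 3.58.1 (R 4.3.3), with lmFit and a trended eBayes. It was run on log2(level + 45.5), the pseudocount being the median of the 6 libraries' lowest non-zero levels. The fit was also tried on simulated data with a fixed spread and no level at 0. That trial does not show how the test behaves for features listed at 0 in some libraries. Features above 0 in at least 3 libraries were tested, with Benjamini-Hochberg adjustment at 0.05. Scripts used Python 3.11.15, numpy 2.4.6, pandas 2.3.3 and matplotlib 3.10.9. Hosts, gene lists and tests were chosen with earlier results of these data known. Every circRNA of the 3 hosts was accounted for. Every tested subunit host was named, with 2 to 4 hosts of smallest p in the partner and signalling lists and 3 nearest hosts per gene. Rims1, Rims2 and Ppp3ca were added after their values were seen. Alternatives covered pseudocount, filter, scaling, trend, host assignment, a replicate block and leaving out each library. A marker of the oligodendrocyte list is not reported here.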

Additional observations from a re-analysis of the deposited data

How the results depend on the processing

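Under all alternatives run, 0 circRNAs and 0 hosts passed limma's adjusted threshold. The Cacna2d1 host sum changed sign without CUS replicate 2 (log2 difference 0.38, and -2.80 to 0.38 over the libraries left out), as did mmu_circRNA007832 (0.72, and -1.95 to 0.72). The Cacna2d3 sum stayed higher in CUS in every setting that could test it, at 3.11 to 4.29 with a library left out. With every CUS library above every Control library, neither the pseudocount nor leaving out a library could change that sign. Cacna1d could not be tested without a Control library, since it was then above 0 in only 2. None of the 3 host sums was above 0 in all 6 libraries, so that filter gave no value for them.

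At an unadjusted p under 0.05, circRNAs numbered 234, and 94 to 135 with a library left out; hosts numbered 127, and 80 to 105. Among features above 0 in all 6 libraries there were 32 circRNAs and 53 hosts, with fewer features tested. The subunit list stayed at 0. The partner list had 1, and 0 to 2 with a library left out (Kcnma1, Ppfia2 or Rimbp2). The signalling list had 0, and 0 to 1 with a library left out, or 1 among hosts above 0 in all 6 libraries (Rasgrf2 each time).

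The numbers do not pair the libraries: same-numbered libraries had correlations of deviations from group means of -0.011, -0.025 and -0.020. With the replicate block, 215 circRNAs and 126 hosts had an unadjusted p under 0.05, and the log2 differences were the same as without it. No library correlated best with its own number.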
